A study of Mus musculus with 9 samples.

Results

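Among the 45281 probes of the Illumina mouse array, 60 were low in the epididymal fat of mice fed a high fat diet (HFD) and not in mice that drank mannose with the same diet (HFDM) or ate a normal diet (ND). They were chosen on log2 of the background-subtracted signal plus 16, with signals below 0 set to 0 and no normalization between arrays. A member had a detection p under 0.01 on all 6 HFDM and ND arrays, which 13413 probes had, and its highest HFD value lay at least 0.5 below the lowest of those 6 values. A further 11 probes that passed both steps were dropped because every HFDM value lay below every ND value. The contrasts of HFD with ND and of HFDM with HFD therefore chose the members, and HFDM with ND served to drop some. The members' differences are given as a description, and no test on them is used as support. Of the 60 probes, 49 carried 1 gene symbol in the platform's annotation and stood for 45 genes, and 11 carried none.

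RNA of the epididymal fat pad, which lies next to the testis and epididymis of male mice, was hybridised from 9 C57BL6/J mice aged 16 weeks. The HFDM group was 3 mice weaned onto HFD with 2% mannose in the drinking water, the HFD group was 3 mice weaned onto HFD without mannose, and the ND group was 3 mice weaned onto normal diet. All 9 mice shared strain, age and tissue, and no genetic change or other agent is named in the labels, which do not give the composition of the diets. One array was run per mouse, and mice are called by diet and replicate number below.

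White fat stores triglyceride in adipocytes and releases it as fatty acids, and the adipocytes share the depot with vessels, stromal cells, nerves and immune cells. Besides lipid enzymes, adipocytes carry mitochondrial enzymes of acyl-CoA, amino acid and sulfur metabolism and enzymes that handle reactive lipid products. In obesity, epididymal fat is known for loss of parts of this metabolic programme together with the arrival of macrophages. Mannose is a simple sugar that cells phosphorylate and mostly use to build the glycans of proteins. In whole tissue, fewer cells of a type and less RNA per cell cannot be told apart.

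The promoters of the member genes were searched for 4 short motifs on both strands. RefSeq promoters on mouse build GRCm38.p6 were matched for 36 of the 45 genes, giving 47 windows of 300 bases (250 before to 50 after a start). The C/EBP-ATF element TGATGNAA, the kind of site through which ATF4 acts on amino acid genes such as Asns, stood in 4 of 47 member windows (8.51%) and in 1304 of 32851 windows of all genes (3.97%). The E-box CACGTG stood in 4 member windows (8.51%, against 7.15% of all windows), the nuclear receptor half-site AGGTCA in 7 (14.9%, against 16.3%) and the TATA box TATAAA in 8 (17.0%, against 13.6%). The TGATGNAA windows are shown because they are the members' only ones with the letters of that element, and the capitals mark it. Each is read 5′ to 3′ on its gene's strand.
Art3 promoter, chr5:92331577-92331876, + strand: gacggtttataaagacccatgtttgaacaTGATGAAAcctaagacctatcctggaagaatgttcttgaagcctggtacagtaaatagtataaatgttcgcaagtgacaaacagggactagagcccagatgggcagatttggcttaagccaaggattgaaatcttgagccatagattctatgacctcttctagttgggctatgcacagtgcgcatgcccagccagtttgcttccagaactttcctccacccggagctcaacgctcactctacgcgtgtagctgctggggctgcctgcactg
Asns promoter, chr6:7693160-7693459, - strand: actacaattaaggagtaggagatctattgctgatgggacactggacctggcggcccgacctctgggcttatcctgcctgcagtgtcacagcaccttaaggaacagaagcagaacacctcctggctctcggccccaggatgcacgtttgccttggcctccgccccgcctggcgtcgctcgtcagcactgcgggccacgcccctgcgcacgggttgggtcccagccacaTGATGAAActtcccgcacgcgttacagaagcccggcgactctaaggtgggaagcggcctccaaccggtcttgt
Mmrn1 promoter, chr6:60944067-60944366, + strand: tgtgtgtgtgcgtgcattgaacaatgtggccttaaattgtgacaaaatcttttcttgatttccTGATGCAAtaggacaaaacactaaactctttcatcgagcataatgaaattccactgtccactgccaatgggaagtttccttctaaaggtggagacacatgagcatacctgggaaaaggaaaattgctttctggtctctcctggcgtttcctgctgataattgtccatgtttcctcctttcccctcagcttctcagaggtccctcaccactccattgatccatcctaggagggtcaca
Pdlim3 promoter, chr8:45885237-45885536, + strand: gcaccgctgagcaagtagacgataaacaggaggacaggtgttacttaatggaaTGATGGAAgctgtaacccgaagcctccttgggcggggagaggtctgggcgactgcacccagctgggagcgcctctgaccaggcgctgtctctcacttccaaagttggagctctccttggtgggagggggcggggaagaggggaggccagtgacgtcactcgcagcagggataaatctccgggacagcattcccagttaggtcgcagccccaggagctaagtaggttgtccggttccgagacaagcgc
In the Asns window 15 bases separate the element from the start, against 213 in Art3, 179 in Mmrn1 and 189 in Pdlim3. A match is a description of the letters and not evidence of a bound site.

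All levels from here on are log2 values after normalization of the 9 arrays to each other (limma's neqc). Differences are between diet means on that log2 scale, so that 1 is a doubling, and n is 3 mice in each diet. Across all 20772 probes tested, the median difference was -0.01 for HFD minus ND, -0.03 for HFDM minus HFD and -0.03 for HFDM minus ND. Between 15210 and 17430 probes had a detection p under 0.01 on an array. Adipocyte genes marked the tissue on every array: Adipoq, which encodes adiponectin, lay between 15.17 and 15.72 and Lep, which encodes leptin, between 15.63 and 16.0. Other adipocyte markers were dimmer. Fabp4 lay between 5.26 and 7.38, and Plin1 between 11.1 and 11.68 at ILMN_2687984. A further Plin1 probe, ILMN_1233498, was detected on no HFD array. HFD minus ND was -0.77 for Cebpa and 1.10 for Fabp4, neither at an adjusted p under 0.05 in the limma fit. RNA of neighbouring male organs was present in uneven amounts. The sperm gene Prm1 was detected at a detection p under 0.01 on all 9 arrays. Its probes read from 6.7 on HFD 2 to 15.63 on HFDM 1. The 3 probes of the sperm gene Ldhc were all detected on 5 arrays (HFDM 1, HFDM 3, HFD 3, ND 2 and ND 3) and on none of the other 4 at a detection p under 0.01. The epididymal gene Adam7 was detected at that level on HFDM 1, ND 1 and ND 3. Gpx5, another epididymal gene, was detected on ND 3 alone. The members' counts and the counts called in each list are given with and without these arrays below. Leaving out the Ldhc arrays, the other 4 or the Adam7 arrays keeps only 1 mouse in at least 1 diet. Counts from such a fit rest on that mouse.

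The mean level of the 60 members was 8.99, 9.36 and 9.17 on the 3 HFDM arrays, 8.0, 7.51 and 7.96 on the 3 HFD arrays, and 9.55, 9.65 and 9.31 on the 3 ND arrays. All 3 HFD arrays lay below the other 6, and the HFDM and ND ranges overlapped. The median difference of a member was -1.62 for HFD minus ND (range -3.83 to -0.89), 1.27 for HFDM minus HFD (0.52 to 3.46) and -0.37 for HFDM minus ND (-1.05 to 0.23). In 55 members the HFD mean was at least 2-fold below the ND mean, and in 13 at least 4-fold. In 44 members the HFDM mean was at least 2-fold above the HFD mean, and in 6 at least 4-fold. After normalization all 60 still had every HFD value below every HFDM and ND value (3.82% of all probes tested did). Every HFD value below every ND value was found in 9.23% of all probes, and every HFDM value above every HFD value in 7.77%. The limma fit called 44 members lower in HFD than in ND at an adjusted p under 0.05, beside 0.390% of all probes, and 8 higher in HFDM than in HFD, beside 0.0530% of all probes. Both shares follow from how the members were chosen. The 2 contrasts share the HFD arrays and are not independent of each other.

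The mice of a diet also differed from each other. HFD 2 had the lowest of the 3 HFD values in 45 members, HFD 3 in 9 and HFD 1 in 6. HFDM 1 had the lowest HFDM value in 40 members and HFDM 2 the highest in 37. In the ND group, ND 2 was highest in 29 members, ND 1 in 23 and ND 3 in 8. The median SD within a diet was 0.33 in HFDM, 0.34 in HFD and 0.36 in ND, so the mice of the 3 diets spread about equally around their means.

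The members with a symbol were grouped by what their genes are known to do, after their names were known. Enzymes were the largest group, with 14 probes of 12 genes, and their median differences were -1.69 for HFD minus ND, 1.28 for HFDM minus HFD and -0.40 for HFDM minus ND. None of the 14 had an HFDM mean above its ND mean. Acsm3, a mitochondrial enzyme that joins medium-chain fatty acids to coenzyme A, had the widest gap of all members. Its probe ILMN_3111685 read 9.49, 10.27 and 10.41 in HFDM, 7.45, 5.25 and 7.08 in HFD, and 9.52, 11.2 and 10.55 in ND. The HFD mean was 14.2-fold below the ND mean (HFD minus ND -3.83 ± 0.61, SE) and the HFDM mean 11.0-fold above the HFD mean (3.46 ± 0.61, SE). The second Acsm3 probe, ILMN_1244261, read 8.07, 9.06 and 9.51 in HFDM, 6.88, 5.19 and 7.0 in HFD, and 9.2, 9.69 and 9.18 in ND. Both probes were lowest in HFD 2, where neither was detected. Without HFD 2 the first probe was 8.92-fold lower in HFD than in ND (-3.16) and 6.91-fold higher in HFDM than in HFD (2.79).

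Several enzymes handle lipids or lipid products. Ces1f, a carboxylesterase that cleaves esters, read 12.05, 12.17 and 11.93 in HFDM, 10.92, 9.48 and 10.75 in HFD, and 12.39, 12.91 and 12.13 in ND. Its HFD mean was 4.27-fold below ND, and the HFDM mean lay 0.43 below ND. Pon1, the paraoxonase that HDL carries, read 7.75, 8.48 and 9.8 in HFDM, 6.56, 5.6 and 7.71 in HFD, and 8.75, 10.49 and 9.24 in ND. Its SDs were 1.04, 1.06 and 0.90, among the widest of the members, with HFDM 1 at 7.75 close to HFD 3 at 7.71. Gsta4, a glutathione transferase that clears the lipid peroxidation product 4-hydroxynonenal, read 9.68, 9.9 and 9.65 in HFDM, 8.63, 7.88 and 8.86 in HFD, and 10.75, 9.82 and 10.03 in ND. Pnpla3, a lipid hydrolase and acyltransferase related to the fat cell lipase Pnpla2, read 12.57, 13.26 and 12.92 in HFDM, 11.96, 11.36 and 12.29 in HFD, and 12.65, 13.38 and 13.15 in ND. HFDM and ND overlapped for Gsta4 and for Pnpla3. Crls1, which makes the mitochondrial lipid cardiolipin, read 7.66, 8.12 and 7.93 in HFDM, 7.13, 7.05 and 7.17 in HFD, and 7.98, 8.12 and 8.02 in ND. Its HFD minus ND difference of -0.92 was the smallest among the enzymes.

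Sulfur, amino acid and redox enzymes showed the same arrangement. Vnn3, of the vanin family that splits pantetheine into pantothenate and cysteamine, had 2 member probes, and ILMN_2491202 read 10.82, 11.23 and 10.74 in HFDM, 9.98, 9.3 and 9.72 in HFD, and 11.4, 11.27 and 11.26 in ND. Its other probe, ILMN_1244479, gave HFD minus ND -1.59 and HFDM minus HFD 1.27, close to -1.64 and 1.27 for the first. Tst, the mitochondrial sulfurtransferase known as rhodanese, read 9.2, 9.55 and 9.7 in HFDM, 8.53, 8.45 and 8.14 in HFD, and 11.2, 10.59 and 9.83 in ND. Tst had the widest HFDM minus ND difference of the set, -1.05, and its HFDM and ND values did not overlap after normalization. Asns, asparagine synthetase, read 10.87, 10.47 and 10.65 in HFDM, 9.61, 9.64 and 9.74 in HFD, and 10.56, 10.97 and 10.48 in ND. HFDM and ND means of Asns differed by -0.01. Fmo1, a flavin monooxygenase, read 12.67, 12.85 and 12.87 in HFDM, 11.98, 11.93 and 12.12 in HFD, and 12.78, 13.76 and 13.38 in ND. Steap2, a metalloreductase, read 8.12, 8.47 and 8.07 in HFDM, 6.86, 7.04 and 6.62 in HFD, and 8.89, 9.16 and 8.24 in ND. Art3, of the ADP-ribosyltransferase family, read 9.27, 9.47 and 9.7 in HFDM, 8.21, 7.47 and 8.45 in HFD, and 9.4, 9.43 and 9.8 in ND. The HFDM means lay 0.51 and 0.55 below ND for Fmo1 and Steap2, and the Art3 means differed by -0.06.

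Among 6 transporters and channels the median differences were -1.23 for HFD minus ND, 1.10 for HFDM minus HFD and -0.26 for HFDM minus ND. Sfxn1, which carries serine into mitochondria for the one-carbon pathway, read 14.19, 14.22 and 14.13 in HFDM, 13.13, 13.08 and 13.39 in HFD, and 14.11, 14.55 and 14.27 in ND. Slc1a3, a transporter of glutamate and aspartate, read 13.65, 14.04 and 13.65 in HFDM, 12.81, 12.36 and 13.0 in HFD, and 13.57, 14.14 and 13.78 in ND. In both genes the HFD mean was 2.15-fold below ND, and the HFDM values lay within the range of the ND values. Slc44a3, of the choline transporter-like family, read 8.75, 9.48 and 8.91 in HFDM, 8.04, 8.12 and 8.05 in HFD, and 9.8, 9.4 and 9.07 in ND. Cacna1d, a pore subunit of L-type calcium channels, read 9.48, 10.12 and 10.03 in HFDM, 8.86, 8.29 and 8.51 in HFD, and 10.78, 10.88 and 9.74 in ND. Flvcr2, a membrane transporter of the FLVCR family, read 8.2, 8.05 and 7.95 in HFDM, 6.88, 6.77 and 7.1 in HFD, and 7.98, 8.08 and 7.62 in ND. Flvcr2 was 1 of the 8 members called higher in HFDM than in HFD, with a difference of 1.15.

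Kcnk1, a potassium channel, differed from the other transporters in its spread. It read 8.07, 7.46 and 6.96 in HFDM, 4.67, 5.11 and 5.36 in HFD, and 10.87, 7.47 and 6.69 in ND. No HFD array detected it, so HFDM was at least 3.27-fold and ND at least 5.89-fold above HFD. ND 1 stood over 3 log2 units above the other ND mice. Without ND 1 the bound for ND over HFD was 2.45-fold (HFD minus ND -2.03, against -3.30 with it), and without ND 3 it was 10.4-fold (-4.12). On the same array Wfdc2, an epididymis and vas deferens marker, read 11.26, against 5.48 and 5.90 on the other ND arrays, 7.96, 7.09 and 8.44 in HFDM and 6.05, 5.25 and 5.44 in HFD. Other markers of that tissue differed from Wfdc2 and from each other. On ND 1, ND 2 and ND 3, Adam7 read 7.84, 5.5 and 10.2, Spink8 5.53, 7.27 and 8.16, and Sult1e1 7.37, 6.61 and 6.25. The other Kcnk1 probe, ILMN_2777530, also stood high on ND 1, with 9.53, 5.66 and 5.67 on the same arrays. So did the keratins Krt8 (11.19, 8.74 and 8.96) and Krt18 (9.53, 6.84 and 7.06). Both belong to the mesothelial list, whose mean was lower on ND 1 (8.34, 9.13 and 9.1). The part of epididymis and vas deferens tissue, or of other tissue, in the Kcnk1 levels was not tested.

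Signalling and trafficking genes made up 12 probes of 11 genes, with median differences of -1.60, 1.18 and -0.30 for HFD minus ND, HFDM minus HFD and HFDM minus ND. Ripk4, a kinase known for its role in epidermal differentiation, had 2 member probes. ILMN_2774497 read 7.36, 8.52 and 7.71 in HFDM, 5.76, 5.16 and 5.02 in HFD, and 8.5, 8.13 and 7.29 in ND. No HFD array detected that probe, so HFDM was at least 4.23-fold and ND at least 4.56-fold above HFD. ILMN_2840856 read 7.29, 8.39 and 7.42 in HFDM, 6.26, 5.96 and 6.49 in HFD, and 8.54, 8.21 and 7.41 in ND. Both Ripk4 probes had their highest HFDM value in HFDM 2 and their highest ND value in ND 1.

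Rasgrf1, an exchange factor that loads Ras with GTP, read 8.3, 7.99 and 7.74 in HFDM, 6.91, 6.28 and 6.15 in HFD, and 7.81, 8.52 and 8.17 in ND. Pde1a, a calmodulin-dependent phosphodiesterase of cyclic nucleotides, read 10.48, 9.48 and 9.85 in HFDM, 8.31, 7.66 and 8.37 in HFD, and 9.61, 10.36 and 9.54 in ND. For both, HFDM and ND overlapped, with HFDM minus ND -0.16 and 0.10. Gng7, a G protein gamma subunit, read 8.97, 9.4 and 9.62 in HFDM, 8.48, 8.44 and 8.35 in HFD, and 9.59, 9.7 and 9.46 in ND. Ppp4r4, a regulatory subunit of protein phosphatase 4, read 6.96, 7.19 and 7.14 in HFDM, 6.1, 5.54 and 5.94 in HFD, and 7.42, 7.9 and 7.12 in ND. Cadps2, which primes dense-core vesicles for release, read 8.53, 8.68 and 8.51 in HFDM, 7.54, 7.68 and 7.93 in HFD, and 9.64, 9.31 and 8.76 in ND. The 3 HFDM values of Cadps2 all lay between HFD and ND without overlap, with HFDM minus ND -0.67.

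The remaining signalling members had narrower gaps. The JNK scaffold Mapk8ip1, the polarity protein Pard6g, the G protein regulator partner Rgs7bp and the receptor-sorting protein Gprasp1 had HFD minus ND of -1.58, -1.30, -1.06 and -1.61. HFDM minus HFD of those 4 genes was 1.11, 0.92, 0.86 and 1.24. Sort1, sortilin, a sorting receptor that adipocytes use to build their glucose transporter vesicles, read 9.96, 10.1 and 10.08 in HFDM, 9.32, 8.91 and 9.22 in HFD, and 10.04, 10.48 and 9.99 in ND. Sort1 had the narrowest gap of the 60 members.

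Surface, secreted and structural proteins made up 10 probes of 9 genes, with median differences of -1.67 for HFD minus ND, 1.39 for HFDM minus HFD and -0.27 for HFDM minus ND. Pdlim3, a LIM protein that binds alpha-actinin at the cytoskeleton, read 9.87, 9.83 and 10.21 in HFDM, 8.44, 8.51 and 8.87 in HFD, and 9.73, 9.65 and 9.83 in ND. Its HFDM mean was 0.23 above the ND mean, the highest such difference in the set. Fign, the microtubule-severing protein fidgetin, read 6.98, 7.93 and 7.26 in HFDM, 6.0, 5.34 and 5.91 in HFD, and 7.07, 7.53 and 7.67 in ND. Mmrn1, the platelet and endothelial protein multimerin, read 8.23, 8.62 and 7.78 in HFDM, 6.32, 5.88 and 7.19 in HFD, and 7.94, 8.58 and 7.76 in ND. HFDM and ND overlapped for Fign and Mmrn1, and for Pdlim3 the lowest HFDM and the highest ND value were both 9.83.

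Podn, the matrix proteoglycan podocan, read 8.73, 9.32 and 8.9 in HFDM, 8.11, 7.46 and 7.93 in HFD, and 9.22, 8.99 and 9.2 in ND. Negr1, a neuronal adhesion protein, read 6.38, 7.63 and 7.32 in HFDM, 6.06, 5.16 and 5.23 in HFD, and 7.19, 7.08 and 6.84 in ND. Negr1 was close to background in HFD, where 1 of 3 arrays detected it. Tmem79, a membrane protein of the skin barrier, read 7.93, 8.16 and 9.0 in HFDM, 7.29, 6.54 and 7.44 in HFD, and 8.76, 8.78 and 9.75 in ND. Thbd, the endothelial anticoagulant receptor thrombomodulin, read 11.09, 11.97 and 11.41 in HFDM, 10.57, 9.28 and 10.36 in HFD, and 11.89, 13.0 and 11.72 in ND. The HFDM means of Tmem79 and Thbd lay 0.74 and 0.71 below ND. Cytl1, a secreted cytokine-like protein, had 2 member probes with HFD minus ND of -1.86 and -1.68 and HFDM minus HFD of 1.24 and 1.30.

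Wfdc15b, a small secreted protein with a WAP domain, read 7.45, 7.09 and 6.55 in HFDM, 5.06, 5.38 and 4.95 in HFD, and 8.96, 8.03 and 6.77 in ND. No HFD array detected it, so HFDM was at least 2.37-fold and ND at least 4.4-fold above HFD. The epididymis and vas deferens list had a mean level of 6.80 to 7.26 on HFDM arrays, 6.09 to 6.39 on HFD arrays and 6.76 to 8.35 on ND arrays, so all 3 HFD arrays lay below the other 6, as for the members. Over its 11 tested probes the median HFD minus ND was -1.64, beside -1.62 for the members, with 10 of 11 below 0, 6 at an unadjusted p under 0.05 and 1 called, where 0.390% of all probes were. Its median was 0.64 for HFDM minus HFD (2 at an unadjusted p under 0.05) and -0.86 for HFDM minus ND. The call count of 1 was 6 without the 5 Ldhc arrays, 0 without the other 4 and 1 without the 3 Adam7 arrays. The part of such tissue in the members' levels was not tested. The rule required detection on all 6 HFDM and ND arrays, so detection could be lost only in HFD. Of the members, 44 were detected on all 3 HFD arrays at a detection p under 0.05, 7 on 2, 4 on 1 and 5 on none. With the 5 undetected members at their bounds, the median differences of the set were -1.61 for HFD minus ND and 1.25 for HFDM minus HFD.

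Nuclear regulators and RNA genes were 4 probes with the smallest median differences, -1.14 for HFD minus ND, 0.85 for HFDM minus HFD and -0.25 for HFDM minus ND. Snhg11, a host transcript of small nucleolar RNAs, read 9.69, 9.64 and 9.77 in HFDM, 8.78, 7.97 and 8.51 in HFD, and 9.97, 9.9 and 9.52 in ND. Hexim1, an inhibitor of the elongation factor P-TEFb, read 9.79, 10.63 and 10.21 in HFDM, 9.46, 9.38 and 9.38 in HFD, and 10.28, 10.36 and 10.39 in ND. Tshz2 and Glis3, both zinc finger proteins, had HFD minus ND of -0.89 and -1.33 and HFDM minus HFD of 0.52 and 0.91. The Tshz2 differences were the smallest of all members in both contrasts.

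Little is known of the other 3 genes with a symbol. 2010016I18Rik read 7.17, 8.1 and 7.09 in HFDM, 5.81, 4.97 and 5.01 in HFD, and 8.43, 7.98 and 7.67 in ND, and no HFD array detected it. HFDM was at least 3.17-fold and ND at least 4.73-fold above HFD for that transcript. Oscp1 and Prrt4 had HFD minus ND of -1.48 and -1.31 and HFDM minus HFD of 1.60 and 0.84. The 11 probes without a symbol had median differences of -1.75, 1.27 and -0.32 for HFD minus ND, HFDM minus HFD and HFDM minus ND. The first of them by gap, ILMN_2760272, read 6.56, 6.65 and 6.77 in HFDM, 5.21, 4.99 and 5.47 in HFD, and 7.85, 6.59 and 6.99 in ND, and no HFD array detected it.

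HFDM was next set against ND for the whole set. The HFDM mean lay below the ND mean in 53 members and above it in 7, within 0.5 of it in 45 and more than 0.5 below it in 15. Besides Pdlim3, the members with a higher HFDM mean were Flvcr2 at 0.18, Mmrn1 at 0.12, Oscp1 at 0.11, Pde1a at 0.10, Negr1 at 0.07 and a probe without a symbol at 0.07. Tst at -1.05, Wfdc15b at -0.89, Kcnk1 at -0.85 and Pon1 at -0.81 lay farthest below. limma called 0 members in either direction at an adjusted p under 0.05 and 3 at an unadjusted p under 0.05. Over all probes it called 0 (0%) and, at the unadjusted p, 801 (3.86%). The absence of calls does not show that HFDM and ND levels were alike, since the rule had removed 11 probes with the clearest intermediate pattern and 3 mice per diet limit the precision.

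The 8 members called higher in HFDM than in HFD were an Acsm3 probe, 2010016I18Rik, a Ripk4 probe, Fign, Pdlim3, Rasgrf1, a Vnn3 probe and Flvcr2. The counts depended on single arrays. The share called over all probes in each smaller fit is not given here or below. A loss of calls among the members therefore cannot be told from a loss over all probes. Leaving out 1 array at a time gave 0 to 39 members called lower in HFD than in ND, with 0 without HFD 2, 4 without HFD 3, 4 without ND 2, 9 without HFD 1, 16 without ND 3, 19 without HFDM 3 and 23 without ND 1. For HFDM against HFD it gave 0 to 11, with 0 without any one of HFD 2, HFD 3, HFDM 1, HFDM 2 and HFDM 3, 1 without HFD 1 and 4 without ND 3. None of the 60 members changed direction in either contrast in any of these fits. That was fixed in advance, since every HFD value of a member lay below its HFDM and ND values.

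The arrays with all Ldhc probes detected and those with none gave the same direction. Prm1 was detected on both kinds, so the split sets more sperm RNA against less. On the 5 arrays with all Ldhc probes detected (2 HFDM, 1 HFD, 2 ND), the members' median differences were -1.42 for HFD minus ND, 1.0 for HFDM minus HFD and -0.41 for HFDM minus ND. On the 4 arrays with none detected (1 HFDM, 2 HFD, 1 ND), they were -1.61, 1.5 and -0.14. In both sets of arrays all 60 members were lower in HFD than in ND and higher in HFDM than in HFD, which the rule itself fixes.

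Probes that the rule did not pick gave a further view of the same genes. They come from the same mice and the same contrasts as the rule, so their differences too are a description. The array held 54 other probes of 26 member genes, and 33 of them, of 22 genes, were tested. HFD minus ND was below 0 in 29 of the 33, with a median of -0.74, and HFDM minus HFD was above 0 in 28, with a median of 0.53. Of the 19 detected on all 6 HFDM and ND arrays, 18 were below 0 in HFD minus ND and 17 above 0 in HFDM minus HFD, with medians of -0.69 and 0.55. In 10 of the 19 every HFD value lay below every HFDM and ND value, against 3.82% of all probes tested. These shares are not alike, since the 19 were kept through detection on the HFDM and ND arrays alone. All probes tested needed detection on at least 3 of 9 arrays of any diet. Over all probes tested the medians were -0.01 and -0.03.

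Of those 33 probes, limma called 3 in HFD against ND, all lower, beside 0.390% of all probes. Sfxn1 (ILMN_2675569) averaged 13.75 ± 0.16 in HFDM, 12.79 ± 0.25 in HFD and 13.92 ± 0.19 in ND (SD, n = 3 each), and HFD minus ND was -1.13. Asns (ILMN_2643513) averaged 12.10 ± 0.16 in HFDM, 11.35 ± 0.16 in HFD and 12.36 ± 0.27 in ND, with HFD minus ND -1.01. Gprasp1 (ILMN_1224770) averaged 10.45 ± 0.22 in HFDM, 9.52 ± 0.27 in HFD and 10.83 ± 0.42 in ND, with HFD minus ND -1.31. The Asns call was lost without any one array, the Sfxn1 call was kept only without HFDM 1, HFDM 2 or ND 1, and the Gprasp1 call only without ND 3. In HFDM against HFD limma called 0 of the 33, with 13 at an unadjusted p under 0.05. HFDM minus HFD was 0.96 for Sfxn1, 0.75 for Asns and 0.93 for Gprasp1.

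Several other probes had smaller differences than their gene's member, or the opposite sign. The 3 other Sort1 probes had HFD minus ND of -0.33, -0.74 and -0.24, against -1.02 for the member. For Fmo1 the other probe, ILMN_2562131, read 0.20 for HFD minus ND, against -1.30 for the member. Tested other probes of Acsm3, Cacna1d and Gng7, all near background, read 0.08, 0.33 and 0.18. A second Gprasp1 probe, ILMN_1219563, read -0.15. The 3 other Crls1 probes read -0.50, -0.43 and -0.16, against -0.92 for the member. HFDM minus HFD was 1.56 and 1.18 at the other Pde1a probes, against 1.82 for the member, and 1.48 at the other Snhg11 probe, against 1.28 for the member.

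Lists of genes of the tissue's pathways were read in the same samples. For HFD against ND and HFDM against HFD, the share of all probes at an unadjusted p under 0.05 is not given. Unadjusted counts in these contrasts, here and elsewhere, therefore cannot be set against the rate over all probes. Fatty acid and triglyceride synthesis, which holds the member Pnpla3, had 36 tested probes of 25 genes. Of these, 4 fell in HFD against ND, where 0.390% of all probes fell, and none rose: Aacs (acetoacetyl-CoA synthetase), Acacb (an acetyl-CoA carboxylase), Fads1 (a fatty acid desaturase) and Tkt (transketolase of the pentose phosphate pathway). Fads1 was 1 of the 11 dropped probes. The list's median was -0.65 for HFD minus ND, 0.10 for HFDM minus HFD and -0.56 for HFDM minus ND, and limma called 0 of its probes in HFDM against HFD (6 at an unadjusted p under 0.05). The 4 calls were 0 without HFD 2 and 1 without HFD 1, HFD 3, ND 2 or ND 3, and 2 without HFDM 2. Aacs averaged 1.71 lower in HFD than in ND and 0.80 higher in HFDM than in HFD, and Tkt differed by -1.25 and 0.19.

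limma called 0 probes in HFD against ND or in HFDM against HFD in 5 other metabolic lists. Lipolysis and fatty acid uptake had 28 probes with a median HFD minus ND of 0.01, and 6 of them had an unadjusted p under 0.05. Insulin signalling had 25 probes with a median of -0.28 and 7 at that p. Branched chain amino acid breakdown had 29 probes with a median of -0.49 and 13 at that p. Mitochondrial respiration had 42 probes with a median of -0.25 and 10 at that p, and the circadian clock 18 with a median of -0.07 and 3 at that p. In HFDM against HFD the unadjusted counts of these lists were 4, 4, 5, 2 and 2. The median of the branched chain list was 0.37 in HFDM minus HFD and that of the mitochondrial list 0.22. The mannose and N-glycan list, the pathways that use the sugar itself, had 44 tested probes, of which limma called 0 (7 at an unadjusted p under 0.05 in HFD against ND and 4 in HFDM against HFD), with medians of 0.01 for HFD minus ND and -0.21 for HFDM minus HFD. The adipocyte identity list had 27 probes, of which 4 rose in HFD (3 of Mest and 1 of Sfrp5, both linked to fat cell growth) beside 1.41% of all probes, with a median of -0.08. Without HFD 1, HFD 2 or ND 2 none of them was called, without HFD 3 it was 1 and without ND 3 it was 2. Its mean level per array was 11.0 to 11.41 in HFDM, 10.98 to 11.49 in HFD and 10.98 to 11.14 in ND, so the diets overlapped. In the cholesterol list of 17 probes, the exporter Abcg1 was the probe that passed, 1.67 higher in HFD than in ND beside 1.41% of all probes, and it was not called without HFD 2.

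Macrophage and dendritic cell markers moved opposite to the members. Of 30 tested probes, 8 rose in HFD against ND and 9 fell in HFDM against HFD, with medians of 0.83 and -0.97, beside 1.41% and 0.732% of all probes. Leaving out 1 array gave 2 to 8 and 1 to 10 calls. The first was 5 without HFD 1, 2 without HFD 2 and 4 without HFD 3, and the second 2, 1 and 1 without these arrays, 1 without HFDM 1 or HFDM 3 and 3 without HFDM 2. The list's mean level was 8.76 to 9.06 on HFDM arrays, 9.90 to 10.31 on HFD arrays and 8.81 to 8.94 on ND arrays, without overlap of HFD with the other diets. Trem2, a receptor of lipid-associated macrophages, read 8.23, 8.79 and 8.42 in HFDM, 10.86, 11.53 and 11.31 in HFD, and 9.12, 7.39 and 8.34 in ND. HFD 2 had the highest macrophage mean and the lowest member mean among the 9 arrays. The part of macrophage content in the members' levels was not tested. Stromal and matrix genes had 26 probes with medians of 0.38 for HFD minus ND and -0.38 for HFDM minus HFD, and 11 and 10 of them had an unadjusted p under 0.05. Timp1, an inhibitor of matrix metalloproteinases, was the probe that passed, higher in HFD than in ND beside 1.41% of all probes, a call kept without ND 3 and lost without any other array. Endothelial and mural markers had 22 probes with medians of 0.16 and -0.33, and 7 and 5 at that unadjusted p. Acta2, smooth muscle actin, was the probe that passed, higher in HFD than in ND beside the same 1.41%, a call lost without any one HFD array.

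Marker lists of other tissues were read in the same way. The testis and sperm list had a mean level of 5.89 to 12.21 on HFDM arrays, 5.53 to 10.16 on HFD arrays and 6.07 to 11.08 on ND arrays, and limma called 0 of its 16 probes in either contrast, with 0 at an unadjusted p under 0.05. Its medians were -1.61 for HFD minus ND and 2.77 for HFDM minus HFD, and its part in the members' levels was not tested beyond the fits without these arrays. In the epididymis list the probe that passed was Sult1e1, an estrogen sulfotransferase that fat also expresses, with HFD minus ND -1.72, a call lost without any one HFD array, ND 2 or HFDM 3. Of all 34 epididymis probes on the array, 10 were detected on no array, and of 21 testis probes 4. In the lymphocyte list of 11 probes and the mesothelial list of 13, limma called 0, with 2 and 3 at an unadjusted p under 0.05 in HFD against ND and 4 and 0 in HFDM against HFD. In the muscle list 1 of 10 probes rose in HFD, beside 1.41% of all probes, and fell in HFDM against HFD, beside 0.732%. It was parvalbumin (Pvalb), and the second call was lost without HFD 2, HFD 3, HFDM 1 or HFDM 3. In the blood list 1 of 18 probes rose in HFD, beside 1.41% of all probes, S100a8, a call kept without ND 1 and lost without any other array. The members' counts without the arrays that carry such RNA were 18 lower in HFD and 0 higher in HFDM without the 5 Ldhc arrays, 0 and 0 without the other 4, and 20 and 0 without the 3 Adam7 arrays. In these 3 fits, in the same order, the macrophage calls higher in HFD were 8, 0 and 9, those lower in HFDM 0, 0 and 0, and the fat synthesis calls lower in HFD 0, 0 and 4. The calls higher in HFD were 2, 0 and 2 in the adipocyte list, 3, 0 and 2 in the stromal list, 2, 0 and 0 in the endothelial list, 1, 0 and 2 in the muscle list, 0, 0 and 1 in the blood list and 0, 0 and 1 in the cholesterol list. The muscle call lower in HFDM was lost in all 3.

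The genes outside the set whose pattern was most like the members' mean, by Pearson correlation over the 9 arrays, were Ttc3 (0.983), Gpt2 (0.980), Gsta3 (0.976), Trpc1 (0.973) and Aldh2 (0.971). The 9 points fall into the diet groups, so these coefficients describe the diet pattern and carry no p. Gpt2, a mitochondrial alanine aminotransferase, read 12.08, 12.23 and 12.33 in HFDM, 11.78, 11.44 and 11.69 in HFD, and 12.35, 12.54 and 12.27 in ND. Aldh2, the mitochondrial aldehyde dehydrogenase, read 14.79, 14.97 and 14.83 in HFDM, 14.37, 13.97 and 14.07 in HFD, and 14.99, 15.36 and 14.97 in ND. Gsta3, a glutathione transferase, was 1 of the 11 dropped probes, with HFD minus ND -1.68 and HFDM minus HFD 1.20.

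The edge of the rule was not marked by a break in the values. On the log2 scale of the rule, Tshz2, Glis3 and Sort1 lay just inside with gaps of 0.514, 0.512 and 0.509 between the highest HFD value and the lowest HFDM or ND value. Ppp1r3c, Trpc1 and Iqcb1 lay just outside with 0.498, 0.494 and 0.490. Ppp1r3c, a glycogen-targeting subunit of protein phosphatase 1, read 11.93, 12.63 and 12.3 in HFDM, 11.32, 11.09 and 11.43 in HFD, and 12.08, 12.19 and 12.44 in ND on that scale. With a gap of 0.25 in place of 0.5, 183 probes would have met the rule, and with a gap of 1, 17.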

How the data were processed

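Epididymal fat RNA of 9 mice was measured on single-colour Illumina bead arrays, 1 per mouse. Per the file headers, the deposited table gave each of 45281 probes an intensity and a detection p-value on every array. An array had 27.3% to 33.2% of deposited intensity values below 0, which requires that a background was subtracted earlier. The submitters' processing notes name GenomeStudio without a version. A second deposited table held normalized intensity values on a linear scale, by a method not stated there, and served as an alternative. All value columns matched a sample title (0 unmatched).

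Members were found in Python 3.11.15 by the rule given above. Levels came from limma 3.58.1 in R 4.3.3: neqc with an offset of 16, which estimates background from the detection p-values, normalizes quantiles and takes log2. Probes with a detection p under 0.05 on at least 3 of 9 arrays (20772) were fitted with a mean per diet on all 9 arrays, by lmFit and eBayes, with Benjamini-Hochberg adjustment over all of them and calls at an adjusted p under 0.05. The fit was tested on simulated data. With 3 mice per diet the smallest two-sided p of an exact permutation test is 0.1. The number of arrays limits the precision. Slide and scan day were not used here.

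For a probe not detected at 0.05 on any HFD array, a bound replaced its fold: the other diet's mean over the mean of the higher of the probe's HFD value and the lowest detected signal on that array. Platform annotation gave 34885 probes 1 symbol, 18 several and 10378 none. The first 30 members with a symbol by gap were to be described with values. All 19 others are named too, with values for those chosen after they were seen. P-values measure the spread between these mice. The members, the 18 gene lists, the motifs and the tests were chosen with earlier results of these data known, so that no list or pattern here is independent support. Alternatives covered scaling, background correction, detection filter, variance model, replicate block, source of the values and leaving out arrays.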

Additional observations from a re-analysis of the deposited data

How the results depend on the processing

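The rule gave 60 probes, and 183 with a gap of 0.25, 17 with a gap of 1 and 51 with an offset of 50. It gave 68 with array medians made equal (47 shared) and 48 on normalized values (37 shared). With 1 array left out it gave 60 to 233, 233 being without HFD replicate 1. The count of members called lower in HFD than in ND, 44, ranged from 0 to 39 when 1 array was left out. It was 5 with the replicate number as a block. Chosen after seeing the data, fits without the 5 Ldhc arrays, the other 4 and the 3 Adam7 arrays gave 18, 0 and 20. The count of members called higher in HFDM than in HFD, 8, was 2 without further background correction, 3 without a detection filter, 31 with the stricter detection filter, 21 with a variance trend, 13 from the deposited normalized values, 0 with the replicate block and 0 in the same 3 added fits; it ranged from 0 to 11 when 1 array was left out. For HFDM against ND it was 0 throughout, except 1 without the 5 Ldhc arrays. The share called over all probes in each alternative fit is not given here. A change in these counts therefore cannot be told from a change over all probes. The cause of these changes was not tested. Leaving out arrays or adding the block also lowers the residual degrees of freedom (4 with the block, 6 without). Replicate numbers showed no clear pairing: same-numbered mice correlated at -0.516 to 0.459 in their deviations, and 2 of 9 arrays correlated best with their own number. With so few mice these correlations cannot decide whether the numbers mark a shared batch. Of 2280 member differences under 19 alternatives, 2130 moved by less than 1 SD, 150 moved further and 0 reversed. With arrays left out no reversal was possible, since every HFD value of a member lay below its HFDM and ND values. Of 1214 values of other named probes, 864 stayed on the same side of the threshold in the same direction, 315 lost it, 34 gained it and 1 reversed. That was HFDM minus HFD of Tkt, -0.01 without HFDM replicate 3 and up to 0.33 without other single arrays. Members close to background in HFD have the least certain fold changes.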

Other observations

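Ucp1, the uncoupling protein of brown and beige fat, is no member and read 4.78, 4.63 and 12.37 in HFDM, 7.74, 5.02 and 4.73 in HFD, and 4.74, 4.72 and 5.12 in ND, so that 1 HFDM mouse and, less so, 1 HFD mouse stood apart from the rest. The members' mean levels on those arrays, HFDM 3 and HFD 1, were 9.17 and 8.0.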
